A study of Rattus norvegicus with 12 samples.

Results

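The protein components of the cytosolic ribosome were followed through rat cornea libraries from a study of a silk-based ocular patch. The members are the protein-coding genes of the deposited expression table whose symbol is Rpl or Rps followed by a digit, or is Rplp0, Rplp1, Rplp2 or Rpsa; the ribosomal S6 kinase genes (symbols starting with Rps6k) were left out. The rule gave 110 gene IDs with 85 symbols, out of 30452 genes: 42 genes of the small subunit, 65 of the large subunit and the 3 stalk genes. The family is not complete. No ID with the symbol Rpl7, Rpl10, Rpl13a, Rpl27a, Rpl36, Rpl37a, Rps7 or Rps26 is among them, and Rpl37 stands only on loci of 372 and 328 bases. Read shares and subunit ratios below cover only the members found. The rule used names only and no measured value. Expression was measured by RNA sequencing with poly(dT) priming in 12 cornea libraries, 3 in each of 4 groups labelled SF/HA-HEP-PAM, SF/HA, Alkali-burned and Control. The labels give no strain, age, time, patch composition or spelled-out abbreviation, do not say whether the corneas of the SF/HA and SF/HA-HEP-PAM groups were burned, and do not say whether the libraries of a group came from separate animals, so each p-value measures only the spread between these libraries. The labelled tissue is cornea, while the protocol text speaks of treated cells. The series title names a removable patch for taking up inflammatory mediators, and the comparisons below set the burn against Control, each patch group against the burn and against Control, and the patch groups against each other.

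Libraries held 486264 to 2117399 reads on genes, most in the SF/HA-HEP-PAM group, and 28049 to 165256 of those reads fell on members. Of the 110 members, 104 had at least 1 read, 99 passed the filter of at least 1 FPKM in at least 3 libraries and were tested, and 68 had at least 1000 reads over all libraries. FPKM (reads per kilobase, scaled to the library total) was here computed per kilobase of the gene's whole genomic span, introns included, so levels of different members cannot be ranked per transcript, and a long span lowers a gene's FPKM and with it the log2(FPKM + 1) difference of low genes. The label cornea was met by its markers: 5 of 6 epithelial markers are in the table, all with reads in every library, as were all 6 stromal markers. Control replicate 1 stood apart in these lists, with 3.27% of its reads on the epithelial list against 5.57% and 5.67% in the other Control libraries, and 8.54% on the stromal list against 3.30% and 3.70%. An earlier analysis of these data also set apart SF/HA-HEP-PAM replicate 3, SF/HA replicate 2 and Alkali-burned replicate 1, and the number of members called in each pairwise comparison on the FPKM scale is also given without these 4 libraries. Leaving out libraries also changes the number called over all tested genes. Member counts of such fits, where given alone, thus show how far a count depends on libraries and are no result about the members.

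A ribosome joins a small subunit, which reads the mRNA, to a large subunit, which forms peptide bonds, and each ribosomal protein is needed in about the same amount in an assembled subunit. The acidic stalk proteins recruit the elongation factors to the large subunit. In vertebrates most of these mRNAs start with a C followed by an unbroken run of pyrimidines, the TOP sequence, through which the mTORC1 kinase and the RNA-binding protein Larp1 control their translation. In a healing cornea, epithelial cells that migrate and divide and stromal keratocytes that turn into fibroblasts both raise protein synthesis.

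The start-site windows below show pyrimidine runs around the annotated start of members that the results turn on. They are RefSeq sequences of build GRCr8, 5′ to 3′ on the gene's strand, 15 bases before and 15 after the annotated transcription start, with the longest run of C or T in capitals. RefSeq promoters matched 62 of the 85 member symbols, with 63 entries.
Rps27: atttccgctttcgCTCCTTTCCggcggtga
Rps21: gaacgagccaCTTCCTTTCTgtgttctccg
Rplp1: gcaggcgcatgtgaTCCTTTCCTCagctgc
Rps15: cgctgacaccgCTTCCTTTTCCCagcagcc
Rpl13: ctttgcggtgcccgaTCCTTTCCgctcggc
Rpl4: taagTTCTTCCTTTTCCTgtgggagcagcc
Rpl7a: CTCTCCTCCagccgagcaagatggtgagtg
Rpsa: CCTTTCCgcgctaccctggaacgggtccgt
Rps16: cctggaaaatcggtcggggtggCCCCaagc
Rpl26: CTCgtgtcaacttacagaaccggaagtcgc
Rps12: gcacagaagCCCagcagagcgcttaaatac
The windows lie at chr2:177964592-177964621 (minus strand) for Rps27, chr3:187724023-187724052 (plus strand) for Rps21, chr8:71290858-71290887 (minus strand) for Rplp1 and chr7:10068101-10068130 (minus strand) for Rps15. Those of Rpl13, Rpl4 and Rpl7a lie at chr19:68062499-68062528 (plus strand), chr8:73566462-73566491 (plus strand) and chr3:30637121-30637150 (plus strand). The window of Rpsa is chr8:128728864-128728893 (plus strand), that of Rps16 is chr1:92770643-92770672 (plus strand), that of Rpl26 is chr10:54109677-54109706 (plus strand) and that of Rps12 is chr1:23500060-23500089 (plus strand). The marked run crosses or begins at the annotated start in Rps27, Rps21, Rplp1, Rps15, Rpl13 and Rpl4. It lies wholly before the start in Rpl7a and Rpsa, and in Rps16, Rpl26 and Rps12 no run is longer than 4 bases. A run of at least 8 pyrimidines stood anywhere in this window in 38 of 63 member entries (60.3%), against 11.4% of all 33469 promoters of the table. The longest run had a median of 9 bases in members and 4 bases in all promoters.

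Over the whole 300 bases (250 before and 50 after the start), motifs were searched on both strands. CCGGAAG, the core bound by ETS factors, was in 28.6% of member entries and 8.75% of all promoters. GGGCGG, the GC box, was in 57.1% and 33.1%, and AAGATGG, part of the YY1 motif around start codons, in 19.0% and 7.01%. The TATA box letters TATAAA were in 12.7% of member entries and 14.2% of all promoters. Of the pyrimidine hexamers, which can overlap a TOP run, CTCTTT was in 52.4% of member entries and 23.5% of all promoters. The hexamer CTTTCC was in 46.0% and 26.4%, and that written CTTTTC in 38.1% and 23.2%. Members with and without a run of at least 8 pyrimidines had similar medians in 2 comparisons, given with no test: in SF/HA against Control the median log2 difference was 0.37 over 34 tested members with such a run and 0.43 over 21 with a shorter one, and in SF/HA-HEP-PAM against SF/HA it was -0.27 and -0.29. Between Alkali-burned and Control the medians were 0.20 and 0.43, higher in members with the shorter run.

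As a group, the members took the smallest share of reads in Control and the largest in SF/HA. In Control the 3 libraries had 5.77%, 5.73% and 6.61% of their reads on members. Alkali-burned libraries had 7.78%, 6.79% and 7.06%, and SF/HA libraries 8.02%, 7.35% and 8.99%. The SF/HA-HEP-PAM libraries had 6.22%, 7.80% and 6.51%. All Alkali-burned and all SF/HA libraries lay above every Control library, while the SF/HA-HEP-PAM range ran from inside the Control range to inside that of SF/HA. As means, the shares were 6.04% ± 0.494 (SD, n = 3 here and throughout) in Control, 7.21% ± 0.513 after the burn, 6.85% ± 0.844 in SF/HA-HEP-PAM and 8.12% ± 0.822 in SF/HA. With 3 libraries against 3, an exact 2-sided permutation test cannot go below p = 0.1, which Alkali-burned against Control and SF/HA against Control both reached (adjusted p = 0.171 over 12 tests of this share and of the subunit ratio below). SF/HA-HEP-PAM against Control gave an exact permutation p of 0.3, against Alkali-burned 0.6 and against SF/HA 0.2. Wilson 95% intervals of single libraries were narrower than the gaps between most of them, for example 5.70% to 5.83% in Control replicate 1 and 7.95% to 8.08% in SF/HA replicate 1; they cover counting error only. In bulk tissue, fewer cells of a type and less RNA per cell cannot be told apart.

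**Figure D1:**
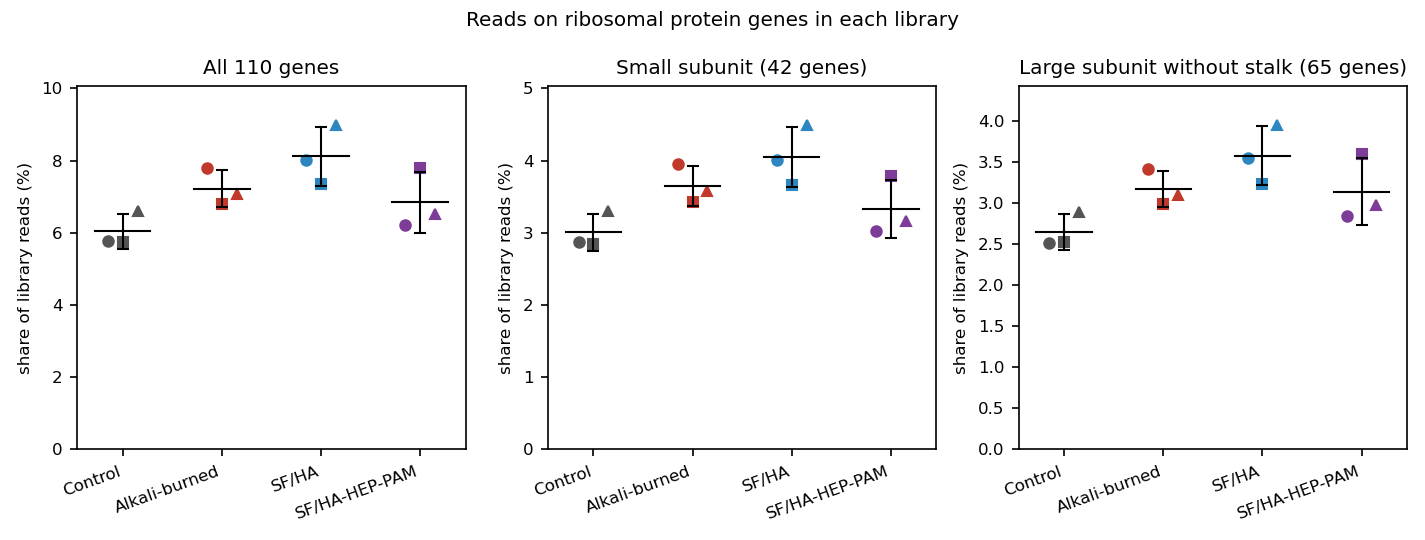
Share of each library's reads (%, vertical axis from 0) on all 110 ribosomal protein genes, on the 42 small-subunit genes and on the 65 large-subunit genes without the stalk; points are libraries (circle, square and triangle for replicates 1, 2 and 3), lines are means and error bars SD. The SF/HA libraries lie between 7.35% and 8.99% for all genes, above the Control libraries at 5.73% to 6.61%.

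Cell markers also differed between the groups. The summed epithelial list held 3.27% to 5.67% of reads in Control and less after the burn, 1.72% to 2.66%. It held 2.55% to 3.51% in SF/HA-HEP-PAM and 2.07% to 3.13% in SF/HA. The stromal list held 3.30% to 8.54% in Control, 2.73% to 3.56% after the burn, 1.23% to 2.15% in SF/HA-HEP-PAM and 3.497% to 3.76% in SF/HA, so SF/HA-HEP-PAM was lowest. The 7 macrophage markers, all with reads in every library outside Control, held at most 0.0293% of reads in Control and 0.0813% to 0.188% in the 9 other libraries, with no overlap. The neutrophil list held 0.0342% to 0.0391% in Control. In replicate order it held 0.664%, 0.128% and 0.145% after the burn, and 0.212%, 0.319% and 1.98% in SF/HA-HEP-PAM. In SF/HA it held 0.167%, 1.72% and 0.277%. The maximum of each of these 3 groups thus came from 1 library, 1 of those that stood apart. Nearly all of these reads were on S100a8 and S100a9, which epithelium also makes under stress. Of the list's other markers Mpo had 0 reads in all libraries, and Cxcr2 and Csf3r had 0 reads in Control and 0 to 9 in any other library. Both conjunctival markers in the table, Krt13 and Krt4, had reads in every library, and no red cell marker is in it. The part of these cells in the share of ribosomal protein reads was not tested.

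Within the family, the same few genes led in every library. Rps18 and Rps19 held the most reads in all 12 libraries, and the 10 members with the most reads together held 31.8% to 35.3% of member reads. Rps19 is the gene most often mutated in Diamond-Blackfan anaemia, and Rps18 sits at the head of the small subunit, where it touches the large one. Rps18 stood at 331, 426 and 473 FPKM in Control, 557, 476 and 497 in Alkali-burned, 621, 539.8 and 698 in SF/HA and 488, 637 and 470.2 in SF/HA-HEP-PAM. On the FPKM scale per genomic span the highest member was Rps27, whose span is short, at 1289 to 2542 FPKM.

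Across the 4 groups, a moderated F-test with limma called 21 of the 99 tested members at an adjusted p below 0.05, against 26.7% of all 6112 tested genes. The count depends on single libraries: it was 6 without Alkali-burned replicate 2 and 8 without Alkali-burned replicate 3, where 1228 and 1149 of the 6112 genes were called, and it stayed at 14 or above only without Control replicate 1 or 3 or SF/HA replicate 2. Over the 6 pairwise comparisons 27 members were called in at least 1, with 42 calls in all. Of these calls 7 passed 2-fold, the fold threshold in the series text. The calls of Rpl12-ps1 are among these 7, and this gene passed the filter only through the burned group, where it is high. A member is called here at a Benjamini-Hochberg adjusted p below 0.05, over all tested genes of the comparison, from limma on log2(FPKM + 1). Comparisons with a group in common share its libraries, so their results are not independent.

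**Figure D2:**
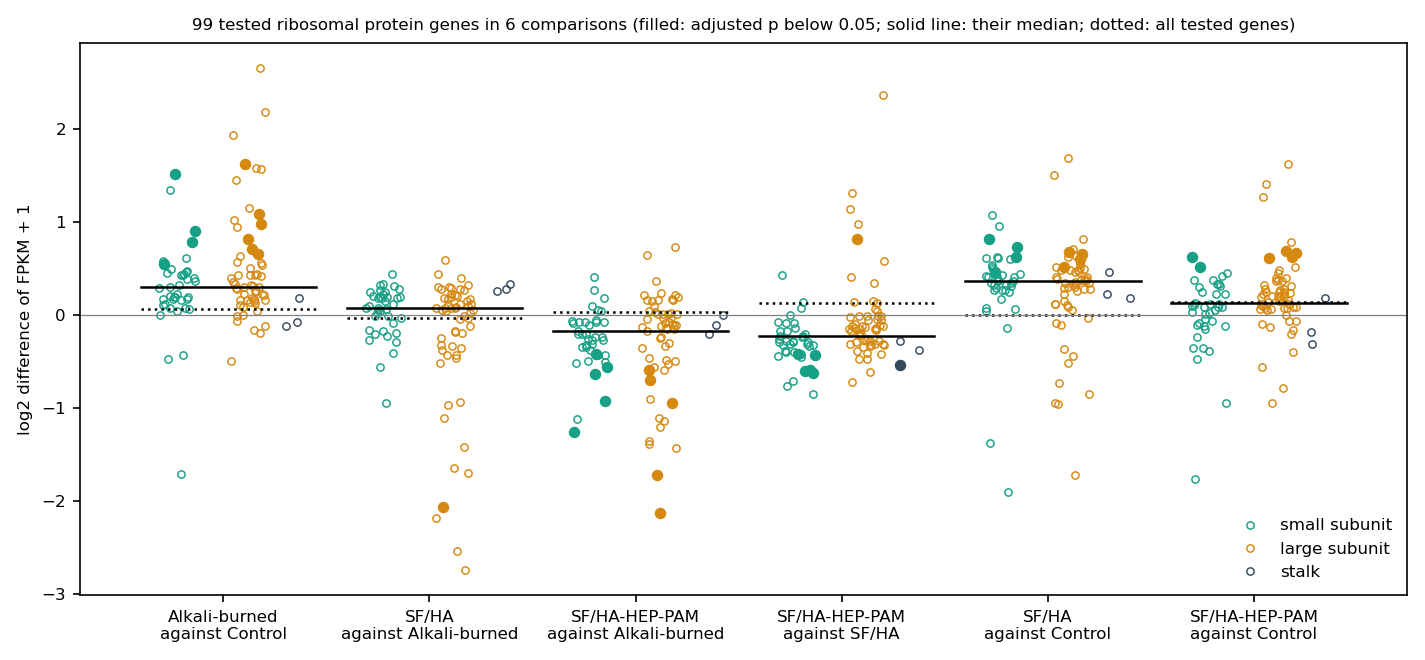
Difference of log2(FPKM + 1) (vertical axis) for each of the 99 tested members in the 6 comparisons, coloured by subunit; filled points have an adjusted p below 0.05, solid lines are the members' median and dotted lines the median of all tested genes. In SF/HA against Control the members' median is 0.36 and that of all tested genes 0.00.

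After the alkali burn, 10 of the 99 tested members rose against Control and none fell, where 7.08% of all tested genes rose and 2.32% fell (9.41% in either direction), and 3 of the 10 passed 2-fold, against 5.69% of all tested genes past 2-fold in either direction. The median log2 difference of the members was 0.30, against 0.06 over all tested genes, and 87 of 99 were positive. The share of members called is thus close to the background. Of the 10, 6 belong to the large and 4 to the small subunit, which had 57 and 39 tested members.

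Rps20 (ENSRNOG00000008555, chr5:16819304-16820475 in mRatBN7.2, chromosome 5 copy), a protein of the small-subunit head, stood at 242, 242 and 259.6 FPKM in Control and 540.4, 409 and 449 in Alkali-burned, then 377, 378 and 491 in SF/HA and 263, 319 and 364 in SF/HA-HEP-PAM. Every burned library lay above every Control library, as did all libraries of the patch groups. The rise after the burn was 0.90 ± 0.16 (SE) on the log2 scale (limma adjusted p = 0.00911). Rpl26 (ENSRNOG00000004214, chr10:53610421-53613966), a large-subunit protein that also binds p53 mRNA, stood at 60.9, 57.6 and 63.9 FPKM in Control and 106, 98.3 and 96.1 in Alkali-burned, without overlap. It rose by 0.71 ± 0.14 (adjusted p = 0.0126, limma). Rpl32 (chr4:148864044-148867612), also of the large subunit, went from 46.1, 80.0 and 91.3 to 144, 140.2 and 132 FPKM, with Control replicate 1 the lowest library of all and no overlap between the groups (0.98 ± 0.22, limma adjusted p = 0.0218).

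Rpl13 (ENSRNOG00000015335, chr19:51153924-51163014), on the surface of the large subunit, was at 78.3, 72.5 and 99.3 FPKM in Control and at 141, 126 and 126 after the burn. Levels were similar in SF/HA (129.8, 118 and 153) and SF/HA-HEP-PAM (117, 154 and 127). All 9 libraries outside Control were above the highest Control library, so the groups do not overlap. Rpl13 rose by 0.66 ± 0.16 after the burn, by 0.68 ± 0.16 in SF/HA and by 0.67 ± 0.16 in SF/HA-HEP-PAM against Control (limma adjusted p = 0.0318, 0.0361 and 0.0162), and was the only member called in all 3 of these comparisons. Rps16 (chr1:83643130-83646206), whose tail reaches the decoding site, rose by 0.54 ± 0.11 after the burn (limma adjusted p = 0.0156), and Rpl39 on chromosome X (chrX:116327094-116330304), a protein of the peptide exit tunnel, by 0.82 ± 0.18 (limma adjusted p = 0.0179) at a low read number (284 over all libraries).

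The other 4 risers carry symbols of copies or variants: Rps18l1 (1.51), Rpl35al1 (1.08), Rps27a-ps1 (0.78) and Rpl12-ps1 (1.62), all log2 differences. Their reads could belong in part to the parent genes, since the counting could split reads between near-identical sequences. For Rpl35al1 it is not settled which locus is the parent. Its ID on chromosome 11 spans 3911 bases and held 701 reads, against 93 and 27 on the IDs named Rpl35a. RefSeq places the promoter of Rpl35a on chromosome 11 and that of Rpl35al1 on chromosome 12. Rpl12-ps1 rests on 11 reads in all 12 libraries, with 0, 1 and 0 reads in Control and 3, 2 and 4 in Alkali-burned. Only 5 libraries had reads on it, all 3 Alkali-burned ones among them. It thus passed the filter only through the group where it is high, so its calls lend no support. The parent Rps27a stood at 305 ± 30.4 FPKM in Control and 431 ± 39.7 after the burn (SD; 0.50 ± 0.14 on the log2 scale, limma adjusted p = 0.0535), and the parent Rps18 at 410.1 ± 72.7 and 510.0 ± 42.2 (0.33, limma adjusted p = 0.281), both with no overlap and neither called. Rps27a encodes a fusion of ubiquitin with a small-subunit protein, so it also feeds the ubiquitin pool.

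When each of the 6 compared libraries was left out in turn, Rps20 and Rpl26 stayed below the threshold in all 6 fits (highest adjusted p 0.0348 and 0.0473 by limma), and the count fell to 3, 4 and 4 without Alkali-burned replicate 1, 2 and 3. Over all 6112 tested genes, 337 and 349 were called without Alkali-burned replicate 1 and 2, against 575 with all libraries. Rpl32 and Rpl35al1 were lost without any 1 burned library (adjusted p up to 0.0684 and 0.0818), Rps27a-ps1 without Alkali-burned replicate 2 or 3 (0.0621), Rps16 without Control replicate 2 or Alkali-burned replicate 1 or 3 (0.0622), and Rpl39 without Control replicate 2 or Alkali-burned replicate 1 or 2 (0.0690). Rpl13 was lost without any library but Control replicate 3 (adjusted p up to 0.111), Rps18l1 without Control replicate 1 or 2 or Alkali-burned replicate 1 or 2 (0.106), and Rpl12-ps1 without Control replicate 1 or 3 or Alkali-burned replicate 1 or 3 (0.103). Without the 4 libraries that stood apart, 9 members rose and none fell. Under quantile normalization 5 members and 522 of all tested genes were called. The members' median was 0.05, while that of all tested genes moved to -0.08, so the members stayed above it.

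The SF/HA group had the highest mean read share of the family. Against Control, 8 of 99 members rose and none fell, where 4.53% of all tested genes rose and 2.06% fell (6.59% in either direction); none of the 8 passed 2-fold, as 4.56% of all tested genes did. The median was 0.36, against 0.00 over all tested genes, and all 68 members with at least 1000 reads had a positive log2 difference, from 0.04 to 0.81.

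Rps16 had the largest difference of the 8. It stood at 312, 277 and 327 FPKM in Control, 491, 411 and 435 in Alkali-burned, 527, 519 and 565 in SF/HA and 332, 372 and 366 in SF/HA-HEP-PAM. The 4 groups do not overlap, in the rising order Control, SF/HA-HEP-PAM, Alkali-burned, SF/HA. Its rise in SF/HA over Control was 0.81 ± 0.11 (limma adjusted p = 0.00264).

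Rpl7a (ENSRNOG00000070974, chr3:10239001-10241716), a large-subunit protein needed in ribosomal RNA processing, stood at 315, 327 and 371 FPKM in Control and 435, 375 and 399.9 in Alkali-burned. The patch groups were higher, at 489.5, 525 and 582 in SF/HA and 465, 611 and 487 in SF/HA-HEP-PAM, all 6 above every burned and every Control library. Rpl7a rose by 0.65 ± 0.14 in SF/HA and by 0.62 ± 0.14 in SF/HA-HEP-PAM against Control (limma adjusted p = 0.0182 and 0.00992).

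Rps9 (chr1:65511723-65515123), a small-subunit protein tied to decoding accuracy, went from 302, 307 and 355 FPKM in Control to 478, 487 and 514 in SF/HA, a rise of 0.62 ± 0.15 with no overlap (limma adjusted p = 0.0332). Rpl4 (chr8:64671160-64676306), which reaches into the exit tunnel, went from 121, 95.1 and 110.36 to 151, 153 and 160.5 (0.51 ± 0.13, limma adjusted p = 0.0448). Rps12 (chr1:21680852-21683014) of the small-subunit beak went from 279.5, 232 and 251 to 338, 351 and 363 (0.47 ± 0.11, limma adjusted p = 0.0276). In these 3 genes the lowest SF/HA library lay above the highest Control library. Rpl36a on chromosome X, Rps20 and Rpl13 completed the 8, at log2 differences of 0.60, 0.73 and 0.68.

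Rps16 was called in each of the 6 fits that leave out 1 compared library (adjusted p up to 0.0139 by limma). The count was 1 without Control replicate 2 or SF/HA replicate 3 and 3 without SF/HA replicate 1. It was 11 without Control replicate 1 (9 higher and 2 lower) and 11 without Control replicate 3 (all higher). Rpl7a was lost without Control replicate 2 or SF/HA replicate 3 (adjusted p up to 0.0664), Rps20 without Control replicate 2 or 3 or SF/HA replicate 3 (0.0867), Rpl36a without Control replicate 2 or SF/HA replicate 1 or 3 (0.0733) and Rpl13 without Control replicate 1 or 2 or SF/HA replicate 1 or 3 (0.127). Rpl4 and Rps12 were lost without any library but Control replicate 1 (up to 0.150 and 0.103), and Rps9 without any but Control replicate 3 (0.107). Without Alkali-burned replicate 2 or 3, which enter only through the spread, 5 members were called. Without the 4 libraries that stood apart, 9 rose and 1 fell.

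Between SF/HA and Alkali-burned, 1 member was called. Against 3.34% of all tested genes called (2.72% lower and 0.622% higher), only Rpl12-ps1 fell (-2.06 ± 0.39, limma adjusted p = 0.0189), from 3, 2 and 4 reads to 0, 0 and 0. It passed 2-fold, as 2.44% of all tested genes did. Since it passed the filter only through the burned libraries, where it is high, this call lends no support to a difference. The call was lost without Alkali-burned replicate 1 or 3 or SF/HA replicate 1 or 2 (adjusted p up to 0.0936), and 3 members were called without Control replicate 1; without the 4 libraries that stood apart 1 was called. The median of the members was 0.07, against -0.04 over all tested genes. At an unadjusted p below 0.05 there were 15 members. By rank, the 5 highest log2 differences were those of Rpl36a on chromosome 10 (17 reads in all), Rpl34 (0.44), Rps9 (0.44), Rpl7a (0.40) and Rps10l1 (0.34). The SF/HA and burned libraries did not overlap for Rpl34, Rps9 and Rpl7a, and none of the 3 was called (limma adjusted p = 0.131, 0.158 and 0.168). The 5 lowest, Rpl38 on chromosome 2, Rpl39 on chromosomes 7 and 15, Rpl32-ps3 and Rpl12-ps1, had 9 to 47 reads each over all libraries.

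**Figure D3:**
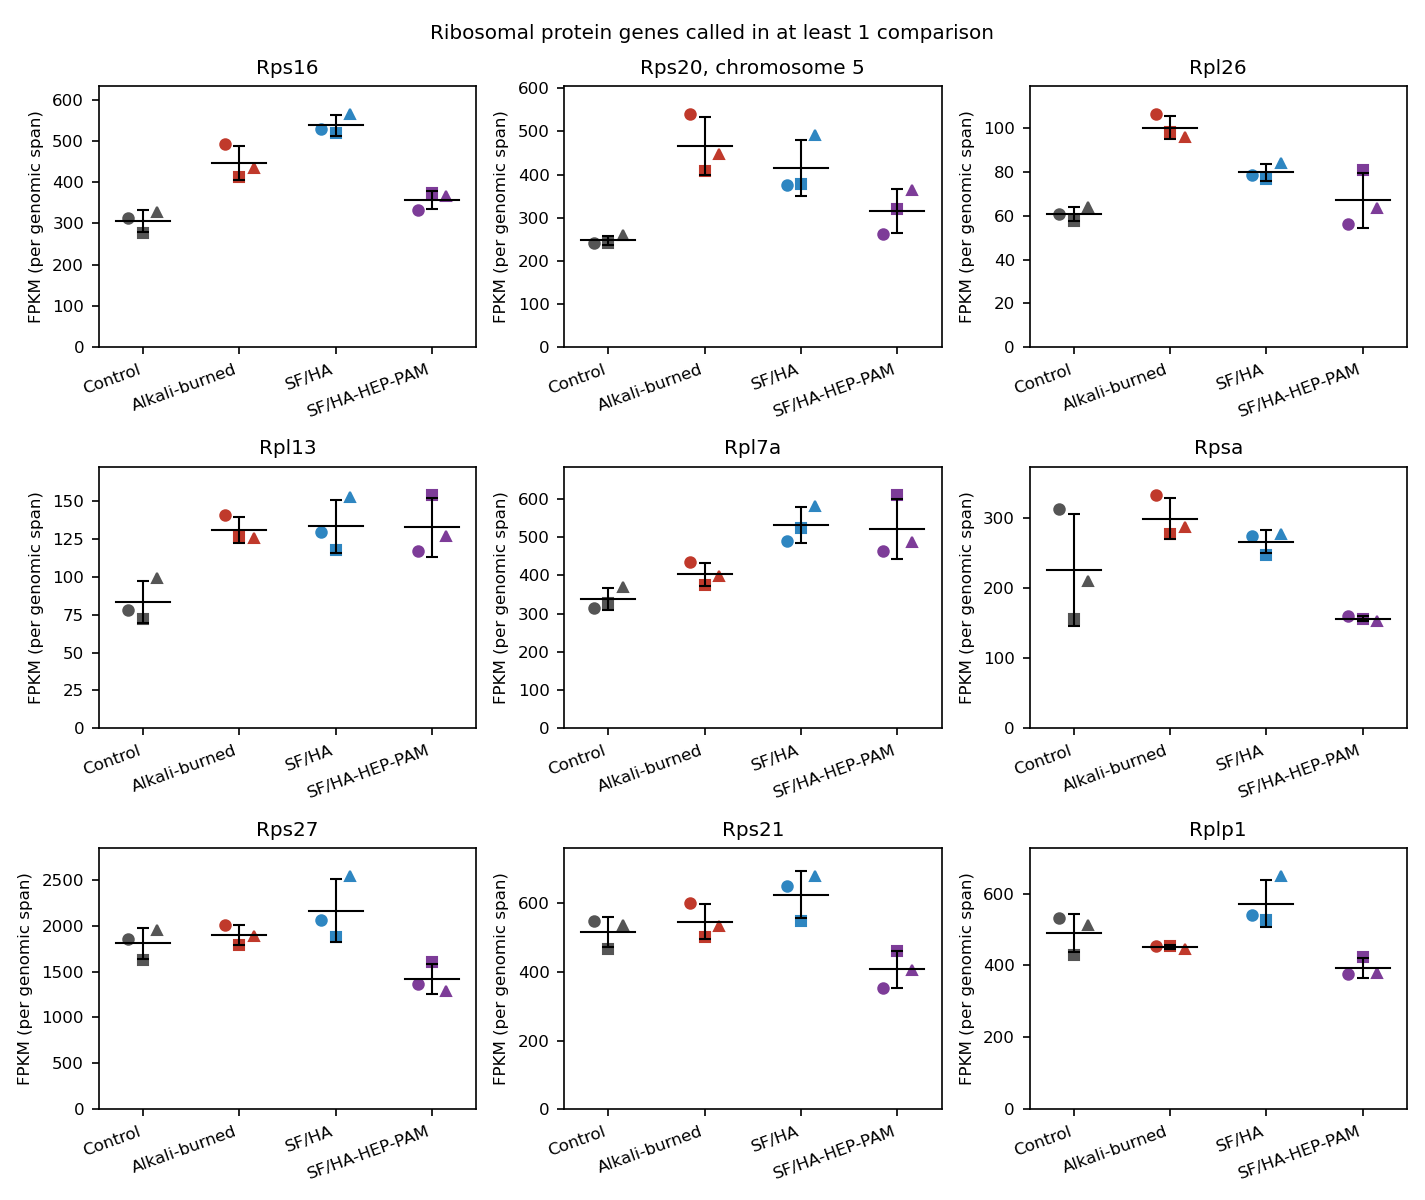
FPKM per genomic span (vertical axes from 0) of 9 called members in every library, by group; circle, square and triangle are replicates 1, 2 and 3, lines are means and error bars SD. Rpl7a and Rpl13 stay high in SF/HA-HEP-PAM, while Rpsa, Rps27, Rps21 and Rplp1 are lowest there.

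In SF/HA-HEP-PAM against Alkali-burned, 10 of 99 members fell and none rose, where 7.92% of all tested genes fell and 14.6% rose (22.5% in either direction). Past 2-fold were 3 of the 10, against 11.1% of all tested genes. The median of the members was -0.17, against 0.04 over all tested genes, and 27 of 99 were positive. The share that fell is near that of all tested genes. The absence of risers depended on the setting, with 2 members higher by median-of-ratios scaling, 1 by quantile normalization, 3 with library weights and 1 without SF/HA-HEP-PAM replicate 3.

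Rpsa (ENSRNOG00000018645, chr8:119851225-119855247), a small-subunit protein that is also the precursor of the laminin receptor, fell most among the members with at least 1000 reads. Its libraries stood at 333, 277 and 288 FPKM in Alkali-burned, 275, 248 and 277 in SF/HA and 160.4, 156 and 153 in SF/HA-HEP-PAM. Control libraries ranged widely, at 313, 156 and 210.0, with Control replicate 1 above all SF/HA libraries and Control replicate 2 within the SF/HA-HEP-PAM range. The 3 SF/HA-HEP-PAM libraries lay close together and below all of Alkali-burned and SF/HA. The log2 difference was -0.93 ± 0.21 against Alkali-burned (limma adjusted p = 0.0115). Against SF/HA the difference was -0.76 ± 0.21 (limma adjusted p = 0.0506, not called).

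Rps27 (ENSRNOG00000016961, chr2:175665853-175666964), a zinc-finger protein of the small subunit, stood at 1851, 1621 and 1948 FPKM in Control, 2009.9, 1787 and 1891 in Alkali-burned, 2063, 1878 and 2542 in SF/HA and 1360.2, 1606 and 1289 in SF/HA-HEP-PAM. All SF/HA-HEP-PAM libraries lay below all 9 others. It fell against Alkali-burned, close to the threshold (-0.42 ± 0.14, limma adjusted p = 0.0497), and against SF/HA (-0.60 ± 0.14, limma adjusted p = 0.0268). The difference from Control was -0.35 ± 0.14 (limma adjusted p = 0.0954, not called).

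Rps20 and Rpl26, which had risen after the burn, fell in SF/HA-HEP-PAM, with log2 differences of -0.56 ± 0.16 and -0.59 ± 0.14 (limma adjusted p = 0.0332 and 0.0148). Rpl26 stood at 56.3, 81.1 and 63.6 FPKM there, from below to above the range of Control. The 6 other calls carried symbols of copies or variants or lay on short loci, with the parent locus of Rpl35al1 not settled, as above. Rpl38 on chromosome 16 (chr16:10182742-10182954) went from 76.0, 148 and 123 FPKM to 22.9, 22.2 and 30.2 (-2.12 ± 0.62, limma adjusted p = 0.0332), while Rpl38 on chromosome 10, with 14396 reads against 159, differed by 0.01. Rpl30 on chromosome 10 (chr10:36831500-36831990) had a log2 difference of -0.70, Rps15al4 of -0.63, Rpl35al1 of -0.94, Rps18l1 of -1.26 and Rpl12-ps1 of -1.71. As above, Rpl12-ps1 passed the filter only through the burned libraries.

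Rpsa alone was called in all 6 fits that leave out 1 compared library (adjusted p up to 0.0441 by limma), and the count fell to 3, 5 and 3 without Alkali-burned replicate 1, 2 and 3 and to 2, 6 and 5 without SF/HA-HEP-PAM replicate 1, 2 and 3. Rpl12-ps1 was lost without Alkali-burned replicate 3 (adjusted p 0.0528), and Rpl26 without SF/HA-HEP-PAM replicate 1 or 3 or Alkali-burned replicate 1 (up to 0.0581). Rps20 was lost without Alkali-burned replicate 1 or 3 or SF/HA-HEP-PAM replicate 1 or 2 (0.116), and Rpl30 without Alkali-burned replicate 1 or 3 or SF/HA-HEP-PAM replicate 1 or 3 (0.0784). Of 6 libraries, the loss of any but SF/HA-HEP-PAM replicate 2 ended the call of Rps27 (0.157), any but Alkali-burned replicate 3 that of Rps18l1 (0.121), any but Alkali-burned replicate 1 that of Rpl38 on chromosome 16 (0.0996), any but SF/HA-HEP-PAM replicate 3 that of Rpl35al1 (0.0912) and any at all that of Rps15al4 (0.129). Without the 4 libraries that stood apart, 5 fell and none rose.

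Between the patch groups, 6 of 99 members fell and 1 rose in SF/HA-HEP-PAM against SF/HA, where 1.41% of all tested genes fell and 7.44% rose (8.85% in either direction); none passed 2-fold, against 4.37% of all tested genes. The median was -0.23 with 0.13 over all tested genes, and 67 of the 68 members with at least 1000 reads were negative.

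Rps21 (ENSRNOG00000060449, chr3:167346201-167347470), a small protein of the small subunit, stood at 549, 467 and 536 FPKM in Control, 602, 502 and 534 in Alkali-burned, 649.6, 547 and 679.9 in SF/HA and 354, 462 and 406 in SF/HA-HEP-PAM. All 3 SF/HA-HEP-PAM libraries lay below the other 9. Rps21 fell against SF/HA (-0.62 ± 0.14, limma adjusted p = 0.0253). Against Alkali-burned it missed the threshold at -0.43 ± 0.14 (limma adjusted p = 0.0516).

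Rplp1 (chr8:62393177-62395339), an acidic stalk protein, stood at 531, 429.8 and 511 FPKM in Control, 454, 455 and 446 in Alkali-burned, 541, 527 and 649 in SF/HA and 375, 425 and 379.7 in SF/HA-HEP-PAM. It fell against SF/HA (-0.54 ± 0.12, limma adjusted p = 0.0276), again with the SF/HA-HEP-PAM libraries below all others. Rps15 (chr7:9416004-9417450), near the decoding site, went from 679.8, 684 and 756 in SF/HA to 511, 535 and 532 in SF/HA-HEP-PAM, and Rps12 from 338, 351 and 363 to 269.6, 262 and 255, neither with overlap. Rps16, Rps15 and Rps12 fell with log2 differences of -0.59 ± 0.11, -0.42 ± 0.11 and -0.42 ± 0.11 (limma adjusted p = 0.0130, 0.0412 and 0.0369). Of the 6 falling members 5 belong to the small subunit, which has 39 of the 99 tested members. These calls depend on single libraries, as given below, and a difference between the subunits in calls was not tested. Rpl10l (chr6:84543540-84545816), a variant of Rpl10 known from testis, was the 1 riser, from 4.60, 4.40 and 3.21 to 7.05, 11.4 and 5.99 FPKM (0.82 ± 0.22, limma adjusted p = 0.0451). It had 182 reads in all. Rpl10 itself is not among the members, and reads of Rpl10 could in part be counted on Rpl10l.

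None of these 7 calls held in all 6 fits that leave out 1 compared library: the count was 0 without SF/HA replicate 3 or SF/HA-HEP-PAM replicate 1, 1 without SF/HA replicate 1 or SF/HA-HEP-PAM replicate 3, and 4 without SF/HA-HEP-PAM replicate 2 or any 1 burned library. Rps16 was lost only without SF/HA replicate 3 or SF/HA-HEP-PAM replicate 1 (limma adjusted p up to 0.0579). Rps21, Rps27 and Rplp1 were lost without SF/HA replicate 1 or 3 or SF/HA-HEP-PAM replicate 1 or 3 (up to 0.0985, 0.0992 and 0.104), and Rps12, Rps15 and Rpl10l without any 1 of the 6 (up to 0.128, 0.146 and 0.160). Without the 4 libraries that stood apart, 5 fell and none rose.

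Against Control, 6 of 99 members rose in SF/HA-HEP-PAM and none fell, where 16.9% of all tested genes rose and 5.06% fell (21.9% in either direction); none passed 2-fold, against 11.6%. The share of risers is below that of all tested genes, and the median was 0.13, with 0.14 over all tested genes. Besides Rpl13 and Rpl7a, the risers were Rpl3, Rps6, Rps19 and Rpl39 on chromosome X (0.69 ± 0.18, limma adjusted p = 0.0190).

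Rpl3 (ENSRNOG00000016896, chr7:111621610-111636468), which shapes the peptidyl transferase centre, stood at 67.955, 66.4 and 73.3 FPKM in Control, 109.97, 85.6 and 88.4 in Alkali-burned, 109.63, 92.1 and 128 in SF/HA and 95.7, 134 and 96.9 in SF/HA-HEP-PAM. Rps6 (chr5:101371136-101374602), the substrate of the S6 kinases downstream of mTORC1, was at 287, 260.3 and 347 in Control and 363, 507 and 416 in SF/HA-HEP-PAM. Rps19 (chr1:80480951-80486508), a small-subunit protein, was at 405, 457 and 520.4 in Control and 685, 866 and 589 in SF/HA-HEP-PAM. In all 3 genes the SF/HA-HEP-PAM libraries lay above every Control library. They rose by 0.63 ± 0.18, 0.52 ± 0.16 and 0.62 ± 0.17 (limma adjusted p = 0.0287, 0.0430 and 0.0287).

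Rpl7a was called in all 6 fits (adjusted p up to 0.0343 by limma). The count was 2 without Control replicate 2 (1 higher and 1 lower) and 2 without SF/HA-HEP-PAM replicate 2 (both higher). Without Control replicate 2 or SF/HA-HEP-PAM replicate 2 Rpl13 was lost (up to 0.0609). Rpl39 was lost without Control replicate 2 or SF/HA-HEP-PAM replicate 1 or 3 (0.0691), and Rpl3 without any 1 Control library or SF/HA-HEP-PAM replicate 2 (0.0975). Rps19 was lost without Control replicate 1 or 2 or SF/HA-HEP-PAM replicate 1 or 2 (0.0965), and Rps6 without Control replicate 1 or 2 or SF/HA-HEP-PAM replicate 2 or 3 (0.144). Without the 4 libraries that stood apart, 4 rose and 1 fell. Quantile normalization turned the median to -0.05, with 3 members higher and 8 lower, and moved the median of all tested genes with it, to -0.11. The members thus stood close to all tested genes under both scalings, and no single call made here turned its sign.

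Leaving the level of the family aside, the ratio of member reads between the subunits separated most groups by a small margin. No comparison of it had an adjusted p under 0.171 by the permutation test. Reads on large-subunit and stalk genes divided by reads on small-subunit genes gave 1.007, 1.015 and 1.005 in Control and 0.970, 0.986 and 0.977 after the burn. It was 1.058, 1.061 and 1.055 in SF/HA-HEP-PAM and 1.001, 1.006 and 0.9997 in SF/HA. Every burned library lay below, and every SF/HA-HEP-PAM library above, all others, while Control and SF/HA overlapped. The means were 1.01 ± 0.00517 (SD) in Control, 0.978 ± 0.00777 after the burn, 1.06 ± 0.00272 in SF/HA-HEP-PAM and 1.002 ± 0.00337 in SF/HA. By the exact 2-sided permutation test, each comparison but SF/HA against Control (p = 0.2) reached 0.1, the smallest p this design allows (adjusted p = 0.171 over the 12 tests named above). The Wilson 95% intervals for counting error were 1.04 to 1.07 in SF/HA-HEP-PAM replicate 3 and 0.973 to 0.999 in Alkali-burned replicate 2, and these libraries had nearly the same depth, with 1245606 and 1265298 reads.

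Leaving out a few small-subunit genes moved the ratio. Without Rpsa the ratio was 1.08 in all 3 of its libraries, 1.03 to 1.05 in Control, 1.005 to 1.02 after the burn and 1.03 in SF/HA, so the group stayed apart. Without Rpsa, Rps27 and Rps21, chosen after their values were seen, it was 1.15 to 1.16 in SF/HA-HEP-PAM and 1.13 to 1.17 in Control, which overlap, while Alkali-burned stayed lowest at 1.09 to 1.11. Restricting to genes that span at least 1000 bases left the ratios at 1.06 in SF/HA-HEP-PAM and 0.969 to 0.987 in Alkali-burned.

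**Figure D4:**
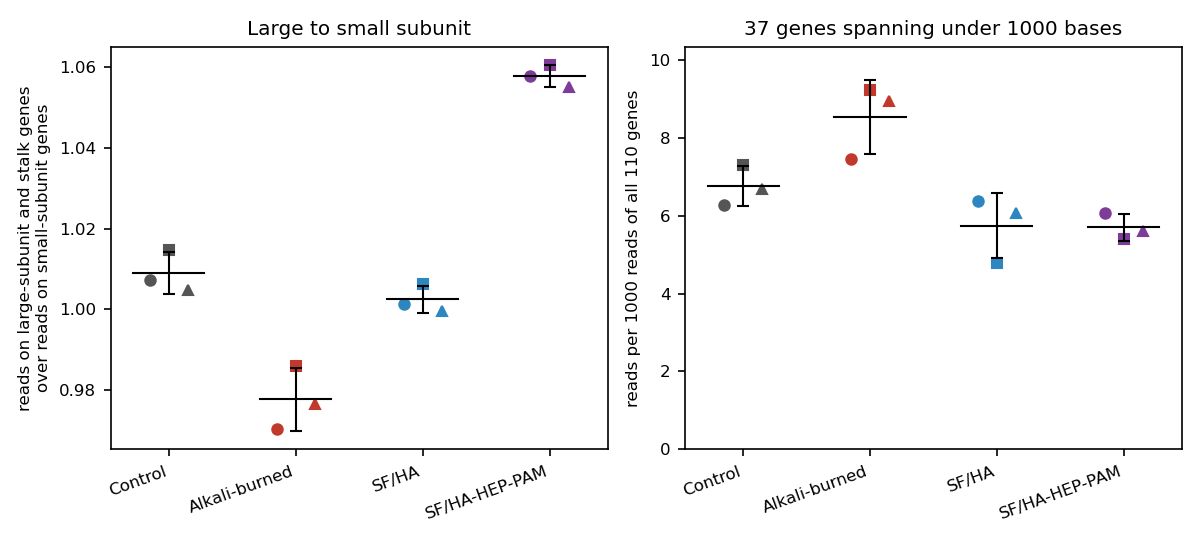
Left, ratio of reads on large-subunit and stalk genes to reads on small-subunit genes in each library (axis does not start at 0); right, reads on the 37 genes spanning under 1000 bases per 1000 member reads. Points are libraries, lines means and error bars SD; SF/HA-HEP-PAM is highest on the left and Alkali-burned highest on the right.

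Scaling each library to its own member reads, a setting chosen after seeing the data, gives each gene relative to the summed reads of the family. That sum is held equal, so higher members bring lower ones with them. The same factor shifts all other genes: in SF/HA against Control the share lower went from 2.06% to 11.5% of all tested genes. The percentages below thus follow in part from the scaling. On that scale (all percentages here are of all tested genes called on it) SF/HA-HEP-PAM against Control had 6 members higher (Rpl13, Rpl15, Rpl3, Rpl7a, Rps19 and Rps6) and 7 lower (Rps27, Rps21, Rplp1, Rplp2, Rps27l, Rps29 on chromosome 6 and Rpl9 on chromosome 14), where 12.1% of all tested genes were higher and 8.25% lower (20.3% in either direction). The differences were -0.53 for Rps27, -0.53 for Rps21, -0.49 for Rplp1 and 0.44 for Rpl7a (limma adjusted p = 0.00242, 0.00520, 0.0107 and 0.00811). Against Alkali-burned, Rpl7a (0.44) and Rps9 (0.35) were higher and 10 members lower, with 13.2% and 6.35% of all tested genes higher and lower (19.6% in either direction). Against SF/HA, Rps21 (-0.37) and Rps27 (-0.35) were lower and Rpl10l (1.01) higher, with 0.344% lower and 11.1% higher (11.5%). Between Alkali-burned and Control, Rps20, Rpl26, Rpl13 and Rpl32 stayed higher at 0.64, 0.46, 0.40 and 0.73, and Rpl34 was lower at -0.38 (limma adjusted p = 0.0233), with 4.29% higher and 3.88% lower (8.16%). SF/HA had Rps16 higher (0.39) and Rps29 lower (-0.35) than Control, with 2.95% higher and 11.5% lower (14.4%), and Rpl26 (-0.49), Rpl35al1 (-1.08) and Rpl12-ps1 (-2.04) lower than the burned corneas, with 3.73% lower and 0.262% higher (3.99%).

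**Figure D5:**
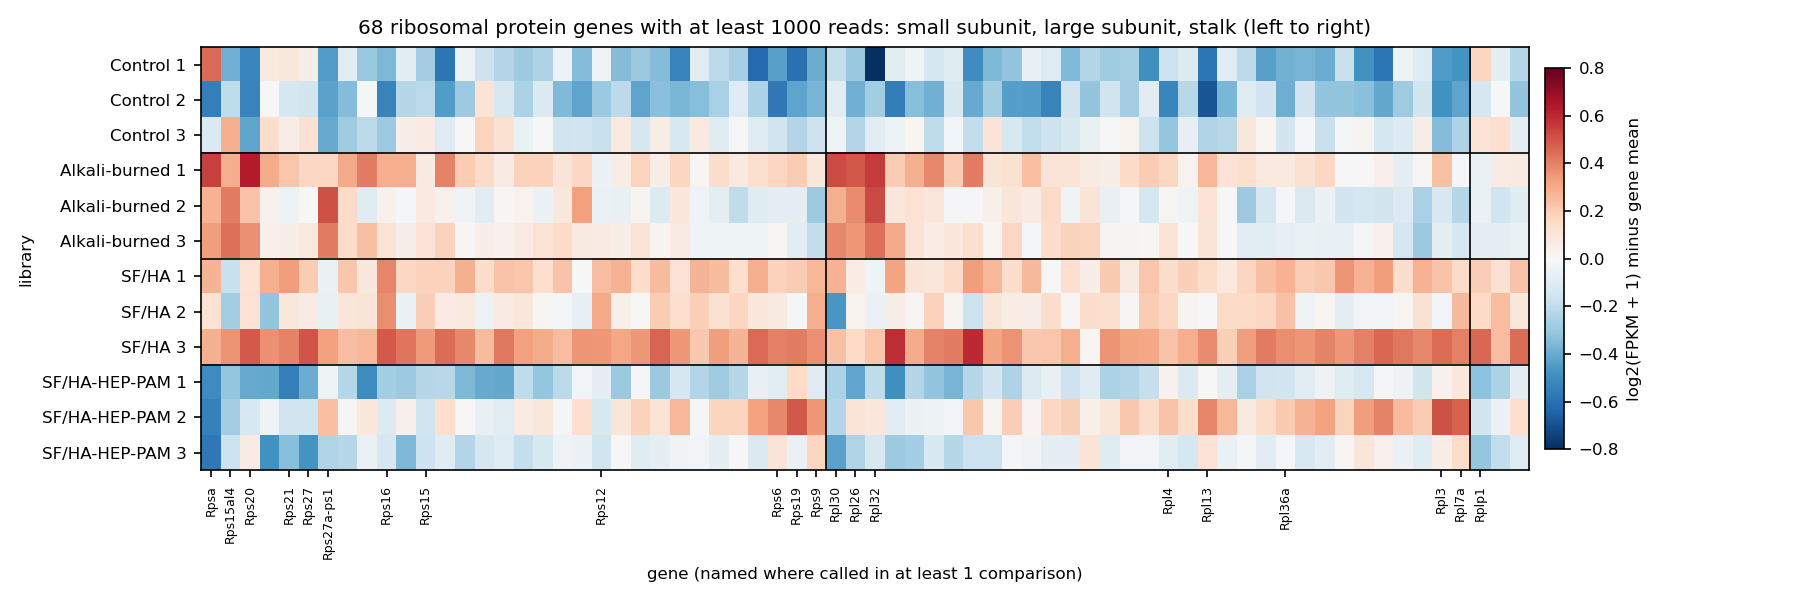
Level of 68 members with at least 1000 reads (columns: small subunit, large subunit, stalk, left to right) in each library (rows), named where called in at least 1 comparison, as log2(FPKM + 1) minus the gene's mean over all libraries; red is higher and blue lower. Control rows are mostly blue, SF/HA rows mostly red, and the SF/HA-HEP-PAM rows mix both, with Rpsa, Rps27 and Rps21 blue.

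Members on very short loci took a larger part of the family's reads in the burned libraries. Of the 110 members, 37 span under 1000 bases, as processed copies without introns do, and 32 of them had reads. They took 6.27, 7.30 and 6.71 of every 1000 member reads in Control, 7.47, 9.24 and 8.97 in Alkali-burned, 6.39, 4.80 and 6.06 in SF/HA and 6.08, 5.42 and 5.62 in SF/HA-HEP-PAM. All burned libraries lay above all others. Among the 27 that were tested, 22 had a positive log2 difference after the burn (median 0.62), 2 in SF/HA against Alkali-burned (median -0.41) and 4 in SF/HA-HEP-PAM against Alkali-burned (median -0.56). The 667 tested genes outside the family with such short spans had medians of 0.51, -0.38 and -0.05, so the first 2 medians are near those of other short genes. Symbols are shared here: 15 member symbols stand on several gene IDs, 40 IDs in all, and reads of a parent and its copies could be split between them, so values of single short copies are uncertain.

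Of the paralogs with a known tissue-restricted or regulated partner, few were well measured. Rpl3l, the striated-muscle form of Rpl3, had 0 reads in all 12 libraries, a count that allows up to 3 reads per library. Rpl22l1, whose level is set by Rpl22 in other tissues, had 58, 113 and 150 reads in Control, 265, 212 and 226 in Alkali-burned, 143, 75 and 246 in SF/HA and 207, 418 and 187 in SF/HA-HEP-PAM, which was 1.63 to 3.49 times the reads of Rpl22 in the same library. The SF/HA ratios (2.83 to 3.49) lay above those of both other treated groups (up to 2.75) and overlapped Control (1.76 to 3.23). On the FPKM scale its log2 differences from Control were 0.54 after the burn and 0.62 in SF/HA, neither called (limma adjusted p = 0.155 and 0.117). Rps27l, a p53-induced relative of Rps27, held 0.0864 to 0.125 times the reads of Rps27, also with overlapping groups; its log2 difference between SF/HA-HEP-PAM and Alkali-burned was -0.43 (limma adjusted p = 0.140, not called), beside -0.42 for Rps27. Rpl39l, the testis form of Rpl39, had 2 to 25 reads per library, and Rpl7l1 stood at 6.35 ± 1.62 FPKM in Control and 7.62 ± 1.15 in SF/HA-HEP-PAM (SD). None of Rpl39l, Rpl7l1, Rpl22l1 and Rps27l was called in any comparison on the FPKM scale.

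Members known for a role beyond the ribosome, and the stalk, came next. Rpl5, Rpl11 and Rpl23 can hold Mdm2 and so raise p53 when ribosome assembly is disturbed. Rpl5 stood at 108, 88.6 and 98.1 FPKM in Control, 124, 114 and 115 in Alkali-burned, 121, 128 and 131 in SF/HA and 109, 138 and 110.43 in SF/HA-HEP-PAM. Rpl11 stood at 207, 226 and 253 in Control, 260.0, 242 and 256 in Alkali-burned, 292, 275 and 323 in SF/HA and 211, 269.6 and 236 in SF/HA-HEP-PAM. Rpl23 stood at 132, 120.3 and 148 in Control, 150.5, 135 and 144 in Alkali-burned, 192, 142 and 191 in SF/HA and 140.4, 169.7 and 152 in SF/HA-HEP-PAM. Each group was at or above Control in its mean, but none of the 3 genes was called in any comparison, with the largest log2 differences in SF/HA against Control (0.36 ± 0.13, 0.38 ± 0.13 and 0.38 ± 0.15; limma adjusted p = 0.130, 0.114 and 0.170). Of the stalk, Rplp0 stood at 515 ± 42.9, 584 ± 36.6, 712 ± 90.5 and 587 ± 56.5 FPKM (SD) in the same order and Rplp2 at 429.6 ± 31.6, 408 ± 31.9, 488 ± 23.4 and 378 ± 28.2. Rplp0, often used as a reference gene, differed by 0.46 between SF/HA and Control (limma adjusted p = 0.0599, not called).

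Genes around the ribosome were taken from lists set beside the members. Fau, a ribosomal protein whose symbol lies outside the rule, fell in SF/HA-HEP-PAM against Alkali-burned, from 419.6, 400.2 and 447 to 336, 337 and 342 FPKM without overlap (-0.32 ± 0.09, limma adjusted p = 0.0361); Rack1, the scaffold on the small subunit, was not called in any comparison. Of 27 tested initiation factors, 5 rose and none fell in SF/HA-HEP-PAM against Alkali-burned, and 6 rose and none fell against Control. These shares are near the 14.6% and 16.9% of all tested genes that rose in these comparisons. Among them were Eif4e, the cap-binding factor, at 0.50 against Alkali-burned, Eif4g2 at 0.77 and Eif2s2 at 0.61 (limma adjusted p = 0.0357, 0.0208 and 0.0134). None of the 27 was called in Alkali-burned or SF/HA against Control. Of 59 tested mitochondrial ribosomal proteins none rose in any comparison. In SF/HA-HEP-PAM, Mrpl27 and Mrpl37 fell against Alkali-burned (-0.60 and -1.29, limma adjusted p = 0.00940 and 0.00872) and Mrpl27 and Mrpl20 against Control. Larger shares of all tested genes fell in these comparisons, 7.92% and 5.06%.

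Of 11 tested mRNAs outside the family that also carry a TOP sequence, 4 rose in SF/HA-HEP-PAM against Control, where 16.9% of all tested genes rose, led by Pabpc1, the poly(A)-binding protein, with 1.19 ± 0.21 (limma adjusted p = 0.00345). Against Alkali-burned 1 of the 11 rose, Pabpc1 (0.73), and 1 fell past 2-fold, the filament gene Vim (-1.04). Of 5 tested elongation factors Eef1g rose in SF/HA and in SF/HA-HEP-PAM against Control, by 0.50 and 0.51, and Eif5a in SF/HA-HEP-PAM against Alkali-burned, by 0.73. Among 31 tested nucleolar genes of ribosome assembly, Rrp9, part of the U3 particle, rose against Control after the burn and in both patch groups (0.82, 0.80 and 0.54), and Sbds, which frees the large subunit for joining, rose in SF/HA-HEP-PAM against Control and Alkali-burned (0.85 and 0.86). Of 7 tested genes of RNA polymerase I, which makes ribosomal RNA, Taf1d rose in SF/HA-HEP-PAM against each other group. Over all tested genes, 7.08% rose against Control after the burn, 4.53% in SF/HA and 16.9% in SF/HA-HEP-PAM. In SF/HA-HEP-PAM, 14.6% rose against Alkali-burned and 7.44% against SF/HA.

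Genes that act upstream of ribosome supply were set beside these. Of 14 tested genes of the list of mTORC1 and TOP translation regulators, 5 rose and none fell in SF/HA-HEP-PAM against Alkali-burned, and likewise 5 against Control, beside 14.6% and 16.9% of all tested genes. Sesn2, a leucine sensor that restrains mTORC1, stood at 3.54, 3.03 and 3.59 FPKM in Control, 5.05, 5.21 and 4.12 in Alkali-burned, 6.60, 9.34 and 6.14 in SF/HA and 19.961, 15.7 and 20.8 in SF/HA-HEP-PAM. Its SF/HA-HEP-PAM libraries lay above all others, a rise of 2.17 ± 0.17 over Control (limma adjusted p = 7.81e-05). Ddit4, another brake on mTORC1, rose against Control by 0.97 after the burn, 1.74 in SF/HA-HEP-PAM and 1.49 in SF/HA (limma adjusted p = 0.0237, 0.000758 and 0.00374). Mxd1 and Mnt, which compete with Myc for its partner Max, rose by 0.97 and 0.66 against Alkali-burned, and Rps6ka1 by 0.48. Of 9 tested p53 genes, 4 rose against Alkali-burned in SF/HA-HEP-PAM and 5 against Control, with Mdm2 at 1.93 and 1.41 (limma adjusted p = 0.000830 and 0.00419), beside 14.6% and 16.9% of all tested genes. After the burn 1 rose and 1 fell against Control, beside 7.08% and 2.32% of all tested genes. Of 10 tested genes of the integrated stress response, which slows translation, 3 rose and none fell after the burn, beside 7.08% of all tested genes that rose: Ddit3 (1.06), Trib3 (0.92) and Chac1 (1.37). Against Alkali-burned, 3 of the 10 were higher and 2 lower in SF/HA-HEP-PAM, beside 14.6% of all tested genes higher and 7.92% lower. In SF/HA 1 was higher and 1 lower, beside 0.622% and 2.72%, and with 10 genes such counts turn on single genes. Among 12 tested chaperones, Hspa8 rose after the burn by 1.38 (limma adjusted p = 0.0112) and no other call was made.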

How the data were processed

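Per the labels' protocols, cornea RNA was reverse transcribed from lysates with barcoded poly(dT) primers carrying molecular identifiers, and cDNA was pooled and amplified. The authors deposited a table of FPKM values. Per the series text, reads were trimmed with fastp and counted with HTSeq-count, and DESeq2 served the authors' own tests; the submitters' processing notes instead name STAR and featureCounts, beside DESeq2 and the genome mRatBN7.2. The counter is thus not settled, and collapsing of duplicate molecules is not given in the sources used here. The length column equals the genomic span for all 30452 genes, and FPKM times length gave whole reads in 100% of values (largest relative deviation 2.16e-06), from which depth, shares and ratios were taken. The 108 lines naming no gene were left out.

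Tests used limma 3.58.1 in R 4.3.3 on log2(FPKM + 1), a pseudocount of 1, with a variance trend, fitting a mean for each of the 4 groups over all 12 libraries. A gene entered if 3 or more libraries reached 1 FPKM, and p-values were adjusted over all 6112 of them. Fold changes on this scale understate those of low genes. The fit was tested on simulated data with known changes, for SF/HA-HEP-PAM against Alkali-burned. It called 83 of 100 genes changed 3-fold and 9 of 100 changed 1.5-fold, with 2 of 5836 unchanged genes called. Small differences were thus mostly missed, and a member not called may still differ. Named were, per comparison, up to 10 called members with the largest and 10 with the smallest log2 difference (where fewer than 5 are called, the extremes by rank), 8 fixed members, 6 paralogs with those partners that are members, and called or highest genes of the lists. Members and lists were chosen with earlier results of these data known. Alternatives changed the pseudocount (0.1, 5), filter (none, 5 FPKM), scaling, libraries in the fit, a replicate block and single libraries, and used voom on the recovered reads; scaling to member reads, library weights and leaving out 4 libraries were chosen after seeing the data. The labels do not say whether replicate numbers pair the libraries. Of 18 same-numbered pairs 2 correlated above 0.1, as did 2 of 36 differently numbered pairs, which cannot settle it with so few libraries. One item is not reported here.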

Additional observations from a re-analysis of the deposited data

How the results depend on the processing

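Of the 42 calls, none reversed under any setting run. The number kept was 38 and 41 with a pseudocount of 0.1 and 5, 20 without a filter, 35 with median-of-ratios scaling, 24 with quantile normalization, 40 scaled to reads outside the members, 16 with only the compared libraries, and, chosen after seeing the data, 23 scaled to member reads, 41 with library weights and 18 without 4 libraries; 39 of 39 held at 5 FPKM and 30 of 39 with voom. Called counts, in the order Alkali-burned against Control, then the same for SF/HA and for SF/HA-HEP-PAM, then SF/HA-HEP-PAM against Alkali-burned and against SF/HA, then the F-test (10, 8, 6, 10, 7 and 21), became 5, 4, 3, 4, 4 and 11 without a filter and 24, 17, 14, 20, 10 and 40 with library weights. Calls over all tested genes moved too. For Alkali-burned against Control, 575 of 6112 became 413 of 18929 without a filter and 1301 of 6112 with library weights. By the F-test, 1629 of 6112 became 1636 of 18929 and 2729 of 6112. With only the compared libraries the first 3 and the last pair comparison gave 3, 1, 1 and 3, the first beside 344 of all tested genes. Quantile normalization gave 5, 2 and 11 in the first 3, with medians of 0.049, 0.17 and -0.050 (all tested genes -0.081, -0.040 and -0.11); scaling to member reads gave 5, 2 and 13, with medians of 0.058, -0.055 and -0.019, and 3 with a median of 0.022 against SF/HA. SF/HA against Control gave 15 at 5 FPKM and 14 with median-of-ratios, which put the first median at 0.17. SF/HA against Alkali-burned (1 call) gave 0 with a pseudocount of 0.1, without a filter, at 5 FPKM and with voom, 2 with median-of-ratios and with only the compared libraries, 3 with a median of -0.093 scaled to member reads, and 4 with weights. Without the 4 libraries, SF/HA-HEP-PAM against Alkali-burned gave 5 and the F-test 13, the latter beside 1722 of all 6112 tested genes. Leaving out any 1 of the 12 libraries gave 3 to 14, 1 to 11, 2 to 7, 2 to 13, 0 to 9 and 6 to 23 in the order above, and 0 to 3 for SF/HA against Alkali-burned. Over all tested genes the F-test then called 1091 to 2026. A fit with the replicate number as a block kept 28 calls. It gave 2 for SF/HA against Alkali-burned, 4 and 3 for SF/HA and SF/HA-HEP-PAM against Control, and 12 by the F-test. Since the labels do not say that the numbers pair the libraries, this is no test of pairing. The mean read share was 6.63%, 7.75% and 8.98% of nuclear protein-coding reads in Control, Alkali-burned and SF/HA, and 8.92%, 10.2%, 10.05% and 9.47% of the FPKM sum with SF/HA-HEP-PAM last, where Alkali-burned stands above SF/HA. Depth limits single copies: 31 of the 99 tested members had under 1000 reads over 12 libraries.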
